A study of Mus musculus with 18 samples.

Results

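Tigit, Lag3, Cd96, Cd226, Havcr2, Cd200 and Cd160 encode surface receptors and ligands that adjust T cell responses outside the CD28 family. They were taken as the rows of the expression files with these gene symbols, and all 7 were found among 26665 genes. RNA was sequenced from 18 libraries of sorted spleen T cells of C57BL/6 mice, in 6 groups of 3. The CD28-deficient mice (CD28KO) were CD28-/-Foxp3EGFP and the wild type mice (WT) Foxp3EGFP, so that both genotypes carried the Foxp3EGFP reporter, a fluorescent label of cells that express Foxp3. The gate for Foxp3EGFP is not described in the sources used here. From each genotype came regulatory T cells (Treg) that were Nrp1+ (named tTreg in the study) or Nrp1- (named pTreg), and conventional T cells (Tconv). CD28 is the main costimulatory receptor of T cells and binds CD80 and CD86 on antigen-presenting cells. The age of the mice, and whether each replicate was a different mouse, are not given in the sources used here. Every p-value below therefore reflects the scatter of these libraries, which may be technical.

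TIGIT, CD96 and CD226 are related receptors that compete for ligands of the nectin family, chiefly CD155 (the product of Pvr). CD226 is the activating receptor of the group, TIGIT an inhibitory one, and CD96 is mostly described as inhibitory. LAG-3 resembles CD4 and binds MHC class II, and TIM-3, the product of Havcr2, binds galectin-9 among other ligands. CD160 binds HVEM, the product of Tnfrsf14, while CD200 is itself a ligand, whose receptor CD200R1 inhibits the cell that carries it. Treg are known to express TIGIT and LAG-3, and both molecules have been described as part of their suppressive equipment.

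The deposited values are FPKM, fragments per kilobase of transcript scaled to the mapped fragments, so levels of different genes can be compared per length. The depth of the libraries is unknown and no counting error can be given. Summed over all genes, a library held 514726 to 994139 FPKM. Differences were fitted with limma on log2(FPKM + 1) across the 12265 genes that reached 1 FPKM in 3 or more libraries, and a gene was called at a Benjamini-Hochberg adjusted p under 0.05. The scale understates the change of genes with low FPKM. Of the 7 genes, 6 passed this filter. Havcr2 reached an FPKM of 1 in only 2 libraries and did not.

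Several libraries went against their labels or stood apart. CD28KO Tconv replicate 3 had the Treg transcripts Foxp3 (21.1 FPKM), Ikzf2 (20.5 FPKM) and Ctla4 (27.3 FPKM), while Foxp3 was 0.067 and 0.205 in replicates 1 and 2 of that group. CD28KO tTreg replicate 3 had the Tconv transcript Pdlim4 at 8.14 FPKM, against 0.126 and 0.0332 in replicates 1 and 2. WT pTreg replicate 1 had the lowest median log2 value of the tested genes (2.85), and WT Tconv replicate 1 the highest FPKM sum. The RNA locus Mir5105 took the largest shares of the FPKM sum in these last 2 libraries and in CD28KO Tconv replicate 3, up to 26.9%, and those 3 are the libraries that stand apart below. Cd28 itself ranged from 54.1 to 117 FPKM in the 9 CD28KO libraries, against 31.5 to 82.8 in the 9 WT libraries, so the level of the whole gene does not check the genotype and all directions rest on the labels. In all 18 libraries the T cell genes Cd3e and Cd4 were high, at 306 FPKM or more and 112 or more. Because all the comparisons draw on the same 6 groups, they share libraries and are not independent of each other.

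Promoters are shown for Tigit, Havcr2 and Cd160, whose levels by genotype are described below, and for Cd96, which was not called between genotypes. The sequences are from RefSeq on GRCm38.p6, 250 bases before to 50 after a transcript start, 5′ to 3′ on the gene's own strand. The table held windows for 5 of the members, Tigit, Havcr2, Cd160, Cd96 and Cd200, and Cd160 has a further start that is not printed. Capitals mark matches on either strand to 7 motifs: TGANTCA (AP-1), GGAAAA (NFAT), TTCNNNGAA (STAT), TGTGGT (Runx), AGGTGT (T-box), AGNGAAAG (Blimp-1) and TGCTGA (a Maf half-site).
Tigit (chr16:43664135-43664434, minus strand): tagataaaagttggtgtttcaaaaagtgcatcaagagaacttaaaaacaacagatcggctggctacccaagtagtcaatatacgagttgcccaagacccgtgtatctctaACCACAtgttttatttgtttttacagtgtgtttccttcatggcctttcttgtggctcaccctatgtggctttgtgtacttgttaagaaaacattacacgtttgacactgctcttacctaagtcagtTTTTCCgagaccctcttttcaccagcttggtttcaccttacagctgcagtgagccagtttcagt
Havcr2 (chr11:46454681-46454980, plus strand): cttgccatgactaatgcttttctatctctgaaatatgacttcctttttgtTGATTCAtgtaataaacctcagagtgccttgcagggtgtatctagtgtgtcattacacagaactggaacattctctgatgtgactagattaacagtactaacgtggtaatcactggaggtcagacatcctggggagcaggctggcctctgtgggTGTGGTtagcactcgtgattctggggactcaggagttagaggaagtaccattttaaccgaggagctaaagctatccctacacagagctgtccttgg
Cd160 (chr3:96829302-96829601, minus strand): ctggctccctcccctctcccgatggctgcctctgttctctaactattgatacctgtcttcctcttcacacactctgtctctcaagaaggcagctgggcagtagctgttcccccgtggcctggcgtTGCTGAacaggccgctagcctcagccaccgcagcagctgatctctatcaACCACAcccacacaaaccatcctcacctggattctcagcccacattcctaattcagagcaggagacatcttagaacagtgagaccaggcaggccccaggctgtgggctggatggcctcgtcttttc
Cd96 (chr16:46120199-46120498, minus strand): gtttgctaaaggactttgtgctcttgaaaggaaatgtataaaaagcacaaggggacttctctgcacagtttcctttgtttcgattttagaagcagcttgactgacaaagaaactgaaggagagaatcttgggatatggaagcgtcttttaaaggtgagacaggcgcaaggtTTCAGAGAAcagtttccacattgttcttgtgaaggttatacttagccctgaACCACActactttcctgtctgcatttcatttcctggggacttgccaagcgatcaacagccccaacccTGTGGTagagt
The matches did not overlap each other. TGTGGT or its reverse complement was found in 5 of 6 windows of the members, those of Tigit, Havcr2, Cd160 and Cd96, and in 16.8% of the 32851 promoters of the same length. With positions counted from the start, and negative before it, the NFAT letters began at -14 in Tigit (found in 23.4% of all promoters) and the AP-1 letters at -200 in Havcr2 (in 7.81%). The STAT letters were in 2 of the 6 windows (in 8.3% of all promoters), at -79 in Cd96 and at -234 in the Cd160 window not printed. The Maf letters began at -125 in Cd160 (in 19.5%). The T-box and Blimp-1 letters were in 0 of the 6 windows and in 13.7% and 8.63% of all promoters. A match describes letters in this window and not a bound site.

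Tigit lies on chromosome 16 (43648867 to 43664146, minus strand, GRCm38). It was 30.2, 35.1 and 27.8 FPKM in CD28KO tTreg, against 76.6, 81.1 and 100 FPKM in WT tTreg. In CD28KO pTreg it was 3.21, 2.63 and 4.0 FPKM, against 27.3, 36.2 and 35.6 FPKM in WT pTreg. In CD28KO Tconv it was 0.726, 1.0 and 7.90 FPKM, against 8.14, 11.3 and 9.09 FPKM in WT Tconv. Every CD28KO library was below every WT library of its population, and the highest CD28KO Tconv value was that of replicate 3, the library with Treg transcripts. Of the 6 tested members, 3 were free of such overlap between genotypes in tTreg, 2 in pTreg and 5 in Tconv, beside 17.8%, 6.43% and 18.7% of all tested genes. In bulk samples like these, fewer cells that express a gene and less RNA per cell cannot be told apart.

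Tigit fell with CD28 deficiency in pTreg by 2.99 ± 0.42 (difference of log2(FPKM + 1) ± SE, limma, adjusted p = 0.00485), where the mean was 10.1-fold lower, at 3.28 ± 0.689 FPKM in CD28KO against 33.1 ± 4.97 in WT (SD, n = 3 each). It held this call under each of 14 alternatives, including the loss of any library of the comparison. Tigit and Lag3 were the called members here, 2 of 6, both lower, while 0.204% of all tested genes were called in either direction and 0.179% lower. In tTreg the mean was 31.0 ± 3.69 FPKM in CD28KO and 85.9 ± 12.4 in WT, a difference of -1.44 ± 0.42 (limma, adjusted p = 0.421), and in Tconv it was 3.21 ± 4.06 FPKM in CD28KO and 9.52 ± 1.63 in WT (-1.74 ± 0.42, limma, adjusted p = 0.0742). All comparisons shared 1 variance per gene, which included CD28KO Tconv replicate 3. Without that library and CD28KO tTreg replicate 3, which also carried transcripts of the other population, Tigit was at -1.36 in tTreg (limma, adjusted p = 0.0147) and at -2.49 in Tconv (limma, adjusted p = 3.19e-05). Replicate numbers paired the Tconv libraries of the 2 genotypes, and with the replicate number as a block Tigit passed there as well (limma, adjusted p = 0.0302).

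Averaged over the 3 populations with equal weight, the CD28KO minus WT difference of Tigit was -2.06 ± 0.24 (limma, adjusted p = 0.000137). In this averaged comparison 3 of the 6 tested members were called, all lower, while 1.56% of all tested genes were called in either direction and 1.4% lower. The remaining pair were Lag3 at -1.63 ± 0.16 (limma, adjusted p = 2.5e-05) and Cd160 at -0.52 ± 0.10 (limma, adjusted p = 0.00765). The median of the 6 members was -0.38, beside -0.01 for all tested genes. All 3 calls were kept without each of the 18 libraries in turn.

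**Figure D1:**
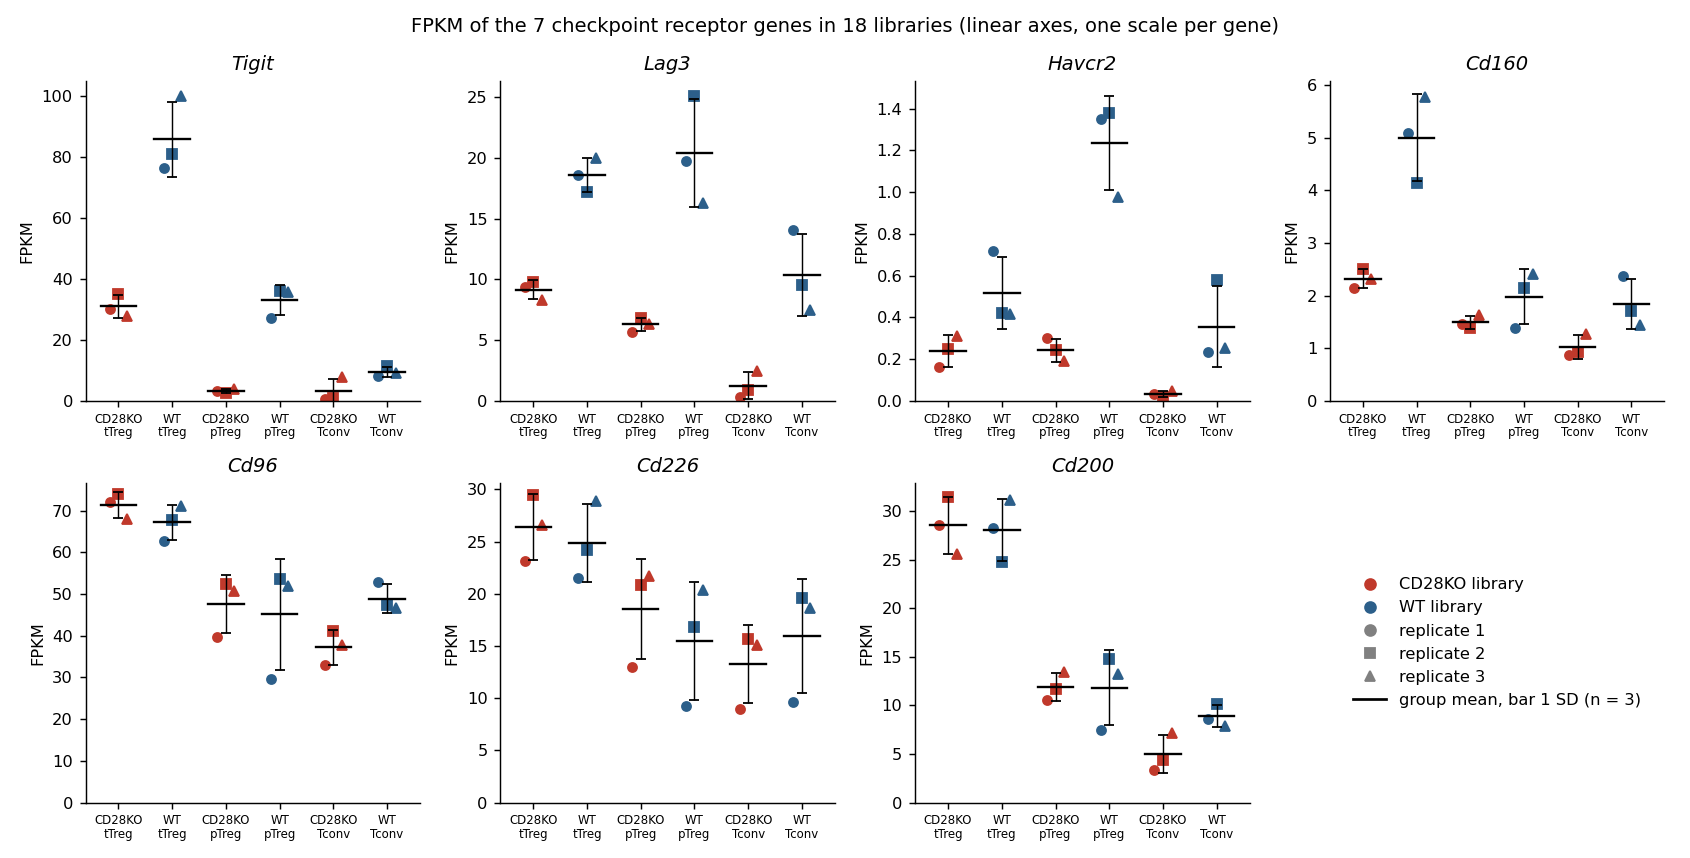
FPKM of each gene in the 18 libraries (linear axes that start at 0, a separate scale for each gene), with points for libraries by replicate number, horizontal lines for group means and bars for 1 SD (n = 3). Tigit in CD28KO pTreg lay between 2.63 and 4.0 FPKM, below all WT pTreg libraries at 27.3 FPKM or more, while Cd96 and Cd226 of the 2 genotypes overlapped in both Treg subsets.

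The order of Tigit levels ran from WT tTreg through WT pTreg, CD28KO tTreg, WT Tconv and CD28KO pTreg to CD28KO Tconv. The libraries of WT pTreg and CD28KO tTreg overlapped, as did those of CD28KO pTreg and CD28KO Tconv, and each other step separated all libraries. Against CD28KO pTreg, CD28KO tTreg had 9.45 times the mean Tigit level (2.91 ± 0.42, limma, adjusted p = 0.000356). Against WT pTreg, WT tTreg had 2.60 times the mean (1.35 ± 0.42, limma, adjusted p = 0.0851). The replicate numbers paired the libraries of these subsets, and with the block the WT comparison passed (limma, adjusted p = 0.0298). The CD28 effect in pTreg minus that in tTreg was -1.56 ± 0.59 and did not pass (limma, unadjusted p = 0.0176, adjusted p = 0.863). Of the 6 members 0 were called in that difference and 2 had an unadjusted p under 0.05, while 0.0245% of all tested genes were called. Without the 3 libraries that stand apart it was -1.68 (limma, adjusted p = 0.0147).

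Cd226, the activating counterpart of Tigit (chromosome 18, 89176967 to 89272229, plus strand), was not called in any CD28KO against WT comparison. It was 26.4 ± 3.20 FPKM in CD28KO tTreg and 24.9 ± 3.74 in WT tTreg, 18.5 ± 4.80 in CD28KO pTreg and 15.5 ± 5.65 in WT pTreg, and 13.3 ± 3.74 in CD28KO Tconv and 16 ± 5.51 in WT Tconv (SD, n = 3 each). The genotypes overlapped in each population. Replicate numbers paired the Tconv libraries of the genotypes, and with the block Cd226 was at -0.23 ± 0.16 there (limma, adjusted p = 0.512). Its averaged CD28KO minus WT difference was 0.05, with a 95% interval from -0.33 to 0.42 (limma, adjusted p = 0.981), which excludes a change of the size seen in Tigit but not a small one. Neighbours in the order of its 6 group means all overlapped.

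The ratio of Tigit to Cd226 FPKM within a library does not depend on how that library was scaled. It was 1.31, 1.19 and 1.05 in CD28KO tTreg, against 3.57, 3.35 and 3.47 in WT tTreg. In CD28KO pTreg it was 0.247, 0.127 and 0.184, against 2.95, 2.16 and 1.75 in WT pTreg. In CD28KO Tconv it was 0.081, 0.0636 and 0.522, against 0.845, 0.576 and 0.488 in WT Tconv. In both Treg subsets the genotypes did not overlap. Tigit exceeded Cd226 in all libraries of WT tTreg, WT pTreg and CD28KO tTreg, and was below it in all libraries of CD28KO pTreg and of both Tconv groups. The Tconv libraries overlapped through CD28KO replicate 3, the library with Treg transcripts.

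**Figure D2:**
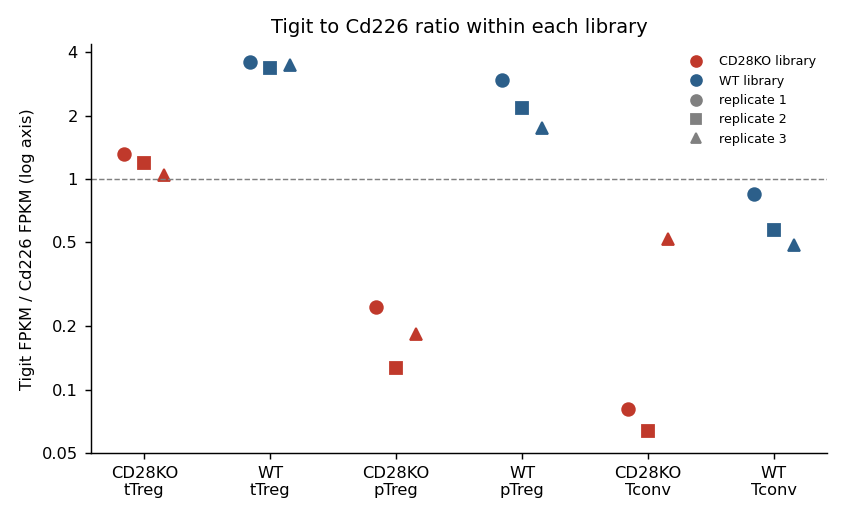
Tigit FPKM divided by Cd226 FPKM in each of the 18 libraries (log axis, dashed line at a ratio of 1), with a point per library and shapes for replicate numbers. The 3 CD28KO pTreg libraries sit between 0.127 and 0.247, below a ratio of 1, and the 3 WT pTreg libraries between 1.75 and 2.95, above it.

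Cd96 (chromosome 16, 46035657 to 46120251, minus strand) had the highest level of the 7 genes in every group except WT tTreg, where Tigit was higher. It was 71.3 ± 3.15 FPKM in CD28KO tTreg and 67.2 ± 4.22 in WT tTreg, and 47.6 ± 6.92 in CD28KO pTreg and 45.1 ± 13.4 in WT pTreg (SD, n = 3 each). In Tconv it was 32.9, 41.2 and 37.7 FPKM in CD28KO, against 52.9, 47.3 and 46.6 FPKM in WT. The Tconv libraries did not overlap, yet the difference of -0.39 ± 0.19 did not pass (limma, adjusted p = 0.529), and it was -0.13 after quantile normalization. The median of all tested genes was itself -0.16 in that comparison and 0.19 in pTreg, which became 0 and 0.02 under quantile normalization. Averaged over the populations, Cd96 was at -0.06 with a 95% interval from -0.30 to 0.17.

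Lag3 (chromosome 6, 124904361 to 124911705, minus strand) was lower in CD28KO libraries of every population. It was 9.36, 9.81 and 8.27 FPKM in CD28KO tTreg, against 18.6, 17.2 and 20 FPKM in WT tTreg. In CD28KO pTreg it was 5.70, 6.85 and 6.33 FPKM, against 19.8, 25.1 and 16.3 FPKM in WT pTreg. In CD28KO Tconv it was 0.353, 0.883 and 2.48 FPKM, against 14.1, 9.56 and 7.49 FPKM in WT Tconv. No population showed overlap between genotypes, and CD28KO Tconv replicate 3 was again the highest of its group.

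Lag3 fell in Tconv by 2.42 ± 0.28 (limma, adjusted p = 0.000199), where its mean was 8.37-fold lower, at 1.24 ± 1.11 FPKM in CD28KO against 10.4 ± 3.36 in WT. Without CD28KO Tconv replicate 3, the library with Treg transcripts, the CD28KO mean was 0.618 FPKM and the fold 16.8. Lag3 was the called member there, 1 of 6, while 0.791% of all tested genes were called, each of them lower. With only the Tconv groups in the model the same difference had an adjusted p = 0.167 (limma). In pTreg it fell by 1.54 ± 0.28 (limma, adjusted p = 0.0299), but this call was lost when any single library of the comparison was left out (limma, adjusted p from 0.052 to 0.18). In tTreg the difference was -0.95 ± 0.28 (limma, adjusted p = 0.445), from 9.15 ± 0.795 FPKM in CD28KO and 18.6 ± 1.40 in WT, with 0 of 6 members called, 3 at an unadjusted p under 0.05, and 0.204% of all tested genes called. Without the 3 libraries that stand apart Lag3 passed in tTreg (limma, adjusted p = 0.023).

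The CD28 effect on Lag3 in tTreg minus that in Tconv was 1.47 ± 0.40, from -0.95 in tTreg and -2.42 in Tconv. It did not pass (limma, unadjusted p = 0.00189, adjusted p = 0.448), with 0 of 6 members called, 2 at an unadjusted p under 0.05, and 0.122% of all tested genes called. It was 1.84 without CD28KO Tconv replicate 3 (limma, adjusted p = 0.0214). WT pTreg and WT tTreg overlapped in Lag3, at 20.4 and 18.6 FPKM, and WT Tconv overlapped with CD28KO tTreg. WT tTreg minus WT pTreg was -0.11 ± 0.28 for Lag3 (95% interval from -0.70 to 0.48). For the CD28 effect in pTreg minus that in Tconv, 0 of 6 members were called, 3 at an unadjusted p under 0.05, beside 0.0734% of all tested genes.

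**Figure D3:**
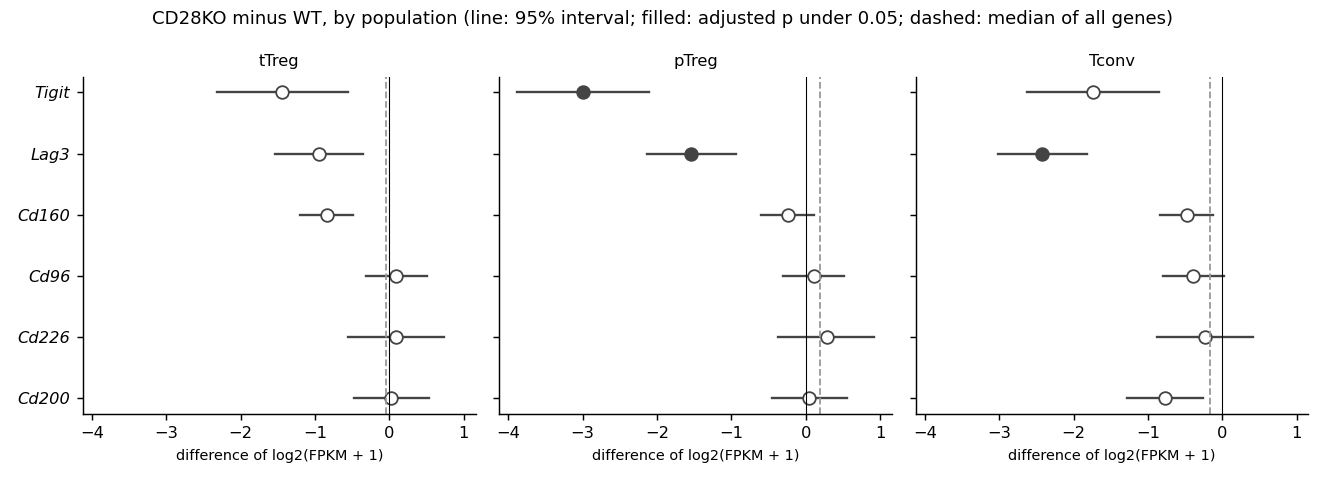
CD28KO minus WT difference of log2(FPKM + 1) for the 6 tested genes in tTreg, pTreg and Tconv, with lines for 95% intervals, filled points for an adjusted p under 0.05 and a dashed line at the median of all 12265 genes. Tigit and Lag3 lie below 0 in the 3 panels, filled in pTreg for both and in Tconv for Lag3, while Cd226 lies within 0.28 of 0 in each.

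Havcr2, which encodes TIM-3 (chromosome 11, 46454935 to 46481255, plus strand), was low throughout. It was 0.161, 0.248 and 0.311 FPKM in CD28KO tTreg, against 0.716, 0.42 and 0.415 FPKM in WT tTreg. In CD28KO pTreg it was 0.299, 0.242 and 0.189 FPKM, against 1.35, 1.38 and 0.975 FPKM in WT pTreg. In CD28KO Tconv it was 0.0332, 0.0198 and 0.0487 FPKM, against 0.236, 0.579 and 0.254 FPKM in WT Tconv. CD28KO libraries were below WT libraries in each population, and WT pTreg stood above all other groups. In a fit with no filter on low values, over 24088 genes, Havcr2 was lower in CD28KO by 0.84 ± 0.10 in pTreg (limma, adjusted p = 0.00363) and by 0.29 ± 0.10 and 0.38 ± 0.10 in tTreg and Tconv (limma, adjusted p = 0.641 and 0.193). That fit called WT tTreg minus WT pTreg at -0.56 ± 0.10 (limma, adjusted p = 0.00528), while Cd160 and Cd200 were called higher in WT tTreg than in WT pTreg.

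Cd160 (chromosome 3, 96798763 to 96829351, minus strand), known from NK cells and cytotoxic T cells, was highest in WT tTreg. It was 2.15, 2.50 and 2.32 FPKM in CD28KO tTreg, against 5.09, 4.14 and 5.78 FPKM in WT tTreg, with no overlap and a 2.15-fold lower mean in CD28KO. This difference of -0.84 ± 0.17 had an adjusted p = 0.0556 (limma) and passed under quantile normalization or with the 3 libraries that stand apart left out (limma, adjusted p = 0.0198 and 0.00386). It was 1.49 ± 0.128 FPKM in CD28KO pTreg and 1.98 ± 0.531 in WT pTreg, which overlapped, and 1.02 ± 0.223 in CD28KO Tconv and 1.84 ± 0.48 in WT Tconv, which did not. Its first 68 annotated bases are shared with Pdzk1 on the other strand, and the strand setting of the quantification is not given in the sources used here.

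Markers of other cells were measured beside these receptors, several of which NK and myeloid cells also use. The 6 NK cell markers summed to between 0.824 and 2.24 FPKM in CD28KO tTreg and 2.11 to 2.47 in WT tTreg, 1.73 to 2.05 in CD28KO pTreg and 2.59 to 3.12 in WT pTreg, and 1.66 to 2.59 in CD28KO Tconv and 3.88 to 7.57 in WT Tconv. The defining receptor Ncr1 was at 0.202 FPKM or less in every library, and most of the sum came from Eomes, which T cells also express, and Klrb1c. The 9 myeloid and dendritic markers summed to between 11.2 and 27.3 FPKM, and 5 of them stayed under 1 FPKM in all libraries. Cd8a reached at most 1.82 FPKM and Cd8b1 12.6. The NK sums of the genotypes overlapped in tTreg only and were lower in CD28KO pTreg and Tconv. Tigit, Lag3 and Havcr2 were lower in CD28KO without overlap in pTreg and Tconv, and also in tTreg. The 6 B cell markers summed to 5.54 to 6.10 FPKM in CD28KO tTreg and 10.6 to 12.3 in WT tTreg, overlapped between genotypes in pTreg and Tconv, and 4 of them stayed under 1 FPKM in all libraries. The part of these other cells in the results was not tested.

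Cd200 (chromosome 16, 45382135 to 45409053, minus strand) was highest in the tTreg groups of both genotypes. It was 28.6, 31.5 and 25.6 FPKM in CD28KO tTreg, against 28.3, 24.8 and 31.2 FPKM in WT tTreg. In CD28KO pTreg it was 10.6, 11.7 and 13.4 FPKM, against 7.50, 14.8 and 13.2 FPKM in WT pTreg. In CD28KO Tconv it was 3.38, 4.41 and 7.14 FPKM, against 8.58, 10.2 and 7.93 FPKM in WT Tconv. Genotypes overlapped in both Treg subsets and not in Tconv, where the difference was -0.77 ± 0.24 (limma, adjusted p = 0.273). Without the 3 libraries that stand apart the Tconv difference was -1.04 (limma, adjusted p = 0.00504) and the average over populations -0.41 (limma, adjusted p = 0.0138). Cd200 was higher in tTreg than in pTreg by 1.20 ± 0.24 in CD28KO (limma, adjusted p = 0.00606) and by 1.22 ± 0.24 in WT (limma, adjusted p = 0.00473).

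Between the Treg subsets, the members called in CD28KO were Tigit and Cd200, 2 of 6, and those called in WT were Cd160 and Cd200, also 2 of 6. All were higher in tTreg. Of all tested genes 4.08% were called in CD28KO, 3.13% higher in tTreg, and 4.93% in WT, 4.44% higher in tTreg. Libraries of the subsets did not overlap for 6 of 6 members in CD28KO and 5 of 6 in WT, beside 33.3% and 14.6% of all tested genes. The replicate numbers paired the libraries in both, and with the block the WT count became 5, as Tigit, Cd96 and Cd226 were added. Cd160 in WT was 5.0 ± 0.819 FPKM in tTreg and 1.98 ± 0.531 in pTreg (1.02 ± 0.17, limma, adjusted p = 0.00137). In a model of the WT tTreg and WT pTreg libraries alone, Cd160 and Cd200 lost their calls in WT (limma, adjusted p = 0.0912 and 0.088). The CD28 effect in pTreg minus that in tTreg was 0.60 ± 0.24 for Cd160 (limma, adjusted p = 0.863).

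Against Tconv, all 6 tested members were called higher in CD28KO tTreg, while 12.1% of all tested genes were called and 9.63% higher. The largest differences were those of Tigit (3.35 ± 0.42, limma, adjusted p = 3.5e-05), Cd200 (2.35 ± 0.24, limma, adjusted p = 8.19e-06) and Lag3 (2.29 ± 0.28, limma, adjusted p = 3.1e-05). Cd96, Cd226 and Cd160 differed by 0.92 ± 0.19, 0.97 ± 0.31 and 0.72 ± 0.17 (limma, adjusted p = 0.00296, 0.0488 and 0.0066). The Cd226 call was lost in 9 of 14 alternatives, which were a pseudocount of 0.1, no filter, the loss of any single library of the 2 groups and the loss of the 2 libraries with transcripts of the other population (limma, adjusted p from 0.0525 to 0.27). Without CD28KO Tconv replicate 3 the Tigit difference was 4.10. In WT, 3 of 6 were called, Tigit (3.05 ± 0.42), Cd200 (1.56 ± 0.24) and Cd160 (1.08 ± 0.17), beside 12.6% of all tested genes, 8.33% higher, and Lag3 at 0.82 ± 0.28 was not (limma, adjusted p = 0.0688). It passed without WT Tconv replicate 1 (limma, adjusted p = 0.028). In both genotypes the libraries did not overlap for 6 of 6 members, beside 37.2% of all tested genes in CD28KO and 28.6% in WT. The replicate numbers paired these libraries, and with the replicate block Cd226 passed in WT too (0.66, limma, adjusted p = 0.00903).

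In CD28KO pTreg against CD28KO Tconv, Lag3 (1.81 ± 0.28, limma, adjusted p = 0.000686) and Cd200 (1.15 ± 0.24, limma, adjusted p = 0.0068) were called, 2 of 6 beside 5.85% of all tested genes, 4.8% higher. Without CD28KO Tconv replicate 1 Cd200 was at 0.95 (limma, adjusted p = 0.0535). Tigit was 3.28 FPKM in CD28KO pTreg and 3.21 in CD28KO Tconv (0.44 ± 0.42, limma, adjusted p = 0.723). Without CD28KO Tconv replicate 3, the library with Treg transcripts, this Tigit difference was 1.19 (limma, adjusted p = 0.0018). In WT, Tigit was the 1 member called (1.70 ± 0.42, limma, adjusted p = 0.0253), beside 4.49% of all tested genes, 2.05% higher. Libraries did not overlap for 3 of 6 members in CD28KO and 2 of 6 in WT, beside 30.1% and 13.4% of all tested genes. The Tigit call in WT was lost in 7 of 14 alternatives, among them the loss of WT Tconv replicate 1, 2 or 3 or of WT pTreg replicate 2 or 3 (limma, highest adjusted p over the 7 = 0.0914).

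**Figure D4:**
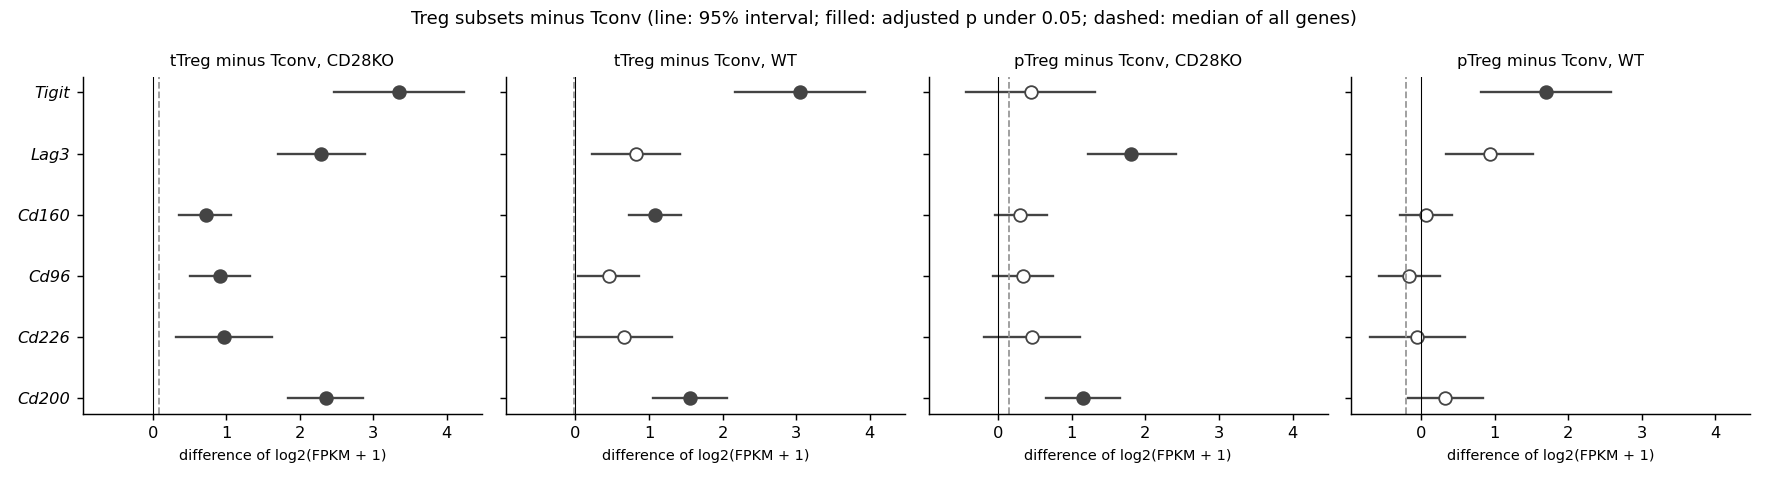
Difference of log2(FPKM + 1) between each Treg subset and Tconv for the 6 tested genes in each genotype, with lines for 95% intervals, filled points for an adjusted p under 0.05 and dashed lines at the median of all 12265 genes. All 6 points are filled for tTreg in CD28KO, and Tigit at 0.44 in CD28KO pTreg is open while it is filled at 1.70 in WT pTreg.

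The ligands and partner receptors of these molecules were taken from a list of 22 genes, of which 21 were in the files and 11 were tested. In CD28KO against WT, 0 of the 11 were called in tTreg, pTreg or Tconv, with 1, 1 and 5 at an unadjusted p under 0.05 and medians of -0.13, 0.19 and -0.18 beside -0.05, 0.19 and -0.16 for all tested genes. In the averaged comparison 2 of the 11 were lower, beside 1.56% of all tested genes called in either direction and 1.4% lower. They were the nectin gene Pvrl1 (-0.37 ± 0.07, limma, adjusted p = 0.0116) and the galectin gene Lgals3 (-0.67 ± 0.13, limma, adjusted p = 0.00862). Pvr, which encodes the shared ligand of TIGIT, CD96 and CD226, was itself expressed by these T cells, at 13.6, 14.9 and 17.5 FPKM in CD28KO tTreg and 11, 13.7 and 11.7 in WT tTreg. It was 22.0, 21.8 and 22.5 FPKM in CD28KO pTreg and 10.9, 19.9 and 21.9 in WT pTreg. Its averaged difference was 0.18 ± 0.12 (limma, adjusted p = 0.858). The second nectin ligand gene, Pvrl2, stayed under 1 FPKM in all libraries.

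Lgals9, which encodes the TIM-3 ligand galectin-9, was between 48.1 and 102 FPKM over all libraries, and its averaged difference was -0.18 ± 0.11 (limma, adjusted p = 0.775). Cd200r1, the inhibitory receptor for CD200, was higher in tTreg than in pTreg, like Cd200 itself. It was 13.2, 13.5 and 13.5 FPKM in CD28KO tTreg against 3.50, 4.44 and 5.10 in CD28KO pTreg (1.44 ± 0.26, limma, adjusted p = 0.00292). In WT it was 13, 17.4 and 22.9 FPKM in tTreg against 3.43, 6.47 and 5.98 in pTreg (1.58 ± 0.26, limma, adjusted p = 0.00144). Its averaged CD28KO minus WT difference was -0.14 ± 0.15 (limma, adjusted p = 0.959). Cd200r4, a related receptor gene whose reads can be shared with its paralogs, was also called between these subsets, at 0.71 ± 0.17 in CD28KO and 0.69 ± 0.17 in WT. The ligand list thus had 2 of 11 called in each genotype, beside 4.08% of all tested genes in CD28KO and 4.93% in WT.

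Of 15 genes for signalling and shedding proteins that work with these receptors, all tested, 0 were called for CD28 deficiency in any population or on average, and at an unadjusted p under 0.05 there were 0 in tTreg, 0 in pTreg, 1 in Tconv and 0 on average. The list includes the phosphatase gene Ptpn6 and Adam10 and Adam17, which encode the proteases that cut LAG-3 from the cell surface. Its median averaged difference was -0.03. Of 14 transcription factor genes reported for coinhibitory receptors in T cells, Tox2 was lower in CD28KO tTreg (-1.77 ± 0.26, limma, adjusted p = 0.00533), and Tox2 (-1.89 ± 0.26) and Tbx21 (-2.01 ± 0.22) in CD28KO Tconv (limma, adjusted p = 0.000888 and 0.000102). These are 1 of 14 in tTreg and 2 of 14 in Tconv, beside 0.204% and 0.791% of all tested genes. In pTreg 0 of the 14 were called and 5 had an unadjusted p under 0.05, among them Tox2 at -1.29 ± 0.26 (limma, adjusted p = 0.0568). The CD28 effect on Tbx21, which encodes T-bet, in tTreg minus that in Tconv was 1.78 ± 0.31 (limma, adjusted p = 0.0315), and Tbx21 was the 1 of the 14 called in that difference, beside 0.122% of all tested genes. On average Batf, at -0.73 ± 0.13 (limma, adjusted p = 0.006), Tox2 and Tbx21 were the 3 of 14 called, all lower, beside 1.56% of all tested genes and 1.4% lower. The list median was -0.57, beside -0.01 for all tested genes. Prdm1 and Maf, which encode Blimp-1 and c-Maf, factors reported to drive coinhibitory receptors in mouse T cells, were at -0.45 ± 0.12 and -0.87 ± 0.22 on average (limma, adjusted p = 0.101 and 0.0687). In tTreg, pTreg and Tconv, Prdm1 was at -0.7, -0.63 and -0.03, and Maf at -0.86, -0.1 and -1.66, with neither called in any of them. The values near 0 were those of Maf in pTreg (SE 0.39) and Prdm1 in Tconv (SE 0.22), and these do not exclude a difference. Maf in pTreg was 46.3, 53.1 and 54.8 FPKM in CD28KO, against 32.8, 82.1 and 61.2 FPKM in WT. The 32.8 FPKM came from WT pTreg replicate 1, a library that stands apart.

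Over the 18 libraries the genes with a pattern most like that of Tigit in log2(FPKM + 1) were Ildr1 (Pearson r = 0.976), Hip1 (0.959) and Ebi3 (0.956), the last encoding a subunit of IL-35 and IL-27. For Lag3 they were Bcl3 (0.911), Pla2g16 (0.906) and Phf11 (0.90), and for Cd160 the cell cycle genes Bub1b (0.977) and Dtl (0.962) and Litaf (0.961). For Cd200 they included Zdhhc2 (0.982) and Smpdl3a (0.982). Cd96 was most like Oaz2 (0.961), Smap1 (0.956) and Lbh (0.953), and Cd226 like Zfp831 (0.976), Nek7 (0.972) and the integrin gene Itga4 (0.968). These correlations describe libraries that share 6 groups and 3 replicate numbers and that were scaled as wholes, so they carry no test.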

How the data were processed

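RNA of sorted spleen T cells was sequenced as single reads of 50 nt. Per the submitters' processing notes, Trimmomatic 1, TopHat2 2.0.11, Cufflinks and the GRCm38 build were used. The authors deposited values per gene symbol and library, taken here as FPKM because Cufflinks is named and because they are fractional, never negative and sum differently per library. The annotation and strand setting are not given in the sources used here. Depth is unknown, which limits what can be said of genes near 0 such as Havcr2.

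Libraries were grouped by their titles. For the tests, limma 3.58.1 (R 4.3.3) was run on log2(FPKM + 1), the pseudocount being 1, with 1 mean per group over all 18 libraries, a variance trend and 12 residual degrees of freedom. Adjusted p-values cover all 12265 tested genes. The code was tested on simulated data. The members and gene lists were chosen with earlier results of these data known, and an exact test planned for the Tigit to Cd226 ratio is not printed for that reason. The genes named from the lists are at most 4 called genes per list and comparison by size, plus the direct ligands. Prdm1 and Maf, and Tox2 in pTreg, were named outside this rule, after their values were seen. Likeness names the 3 genes of highest correlation, leaving out unnamed gene models, antigen receptor segments and small RNAs, and 1 gene that it names is not reported here.

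Replicate numbers were taken as pairing libraries where the correlation of same-numbered libraries, after removal of group means, was above 0.1 for all 3 numbers. This held between Treg subsets in both genotypes, for tTreg and Tconv in both genotypes, for pTreg and Tconv in CD28KO, and between genotypes in Tconv. The cut separated similar values. The genotypes in tTreg, at 0.13, 0.04 and 0.17, fell short, while CD28KO tTreg and CD28KO Tconv, at 0.18, 0.1 and 0.13, passed. Alternatives were a pseudocount of 0.1, no filter, no variance trend, only the compared groups, quantile normalization, the replicate block, and leaving out single libraries, the 3 that stand apart, or the 2 with transcripts of the other population. A reversal was counted only where the main or the alternative value was called. Changes of sign between uncalled values were not counted, such as that of Cd96 between genotypes in pTreg without WT pTreg replicate 1. Gene positions are from GENCODE release M21 on GRCm38.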

Additional observations from a re-analysis of the deposited data

How the results depend on the processing

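Of 78 member differences, 1266 alternative values gave 0 reversed calls, 29 lost and 47 gained ones. The number of members called for CD28 deficiency in tTreg was 0 and became 1 after quantile normalization, with the replicate block and without the 2 libraries with transcripts of the other population, 2 with only the compared groups and 3 without the 3 libraries that stand apart. In pTreg it was 2 and became 1 with a pseudocount of 0.1, with no filter and with only the compared groups. In Tconv it was 1 and became 2 with the replicate block and without those 2 libraries, 3 without those 3 and 0 with only the compared groups. Tigit in tTreg passed at -1.44 without those 3 libraries and with only the compared groups (limma, adjusted p = 0.000946 and 0.0398) and at -1.36 without those 2. Tigit in Tconv passed at -1.74 with the replicate block and at -2.59 and -2.49 without those 3 or 2 libraries. Lag3 in tTreg passed at -0.95 without those 3 libraries and with only the compared groups. Lag3 in pTreg lost its call at -1.66 with a pseudocount of 0.1 (limma, adjusted p = 0.32), and at -1.54 with no filter and with only the compared groups (limma, adjusted p = 0.0681 and 0.191). Lag3 in Tconv lost it at -2.42 with only the compared groups. The causes were not tested.

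Between Treg subsets the count of 2 in CD28KO became 4 without those 3 libraries and with only the compared groups, and the count of 2 in WT became 5 with the replicate block and 1 with only the compared groups. Both became 3 after quantile normalization, as Cd96 was added at 0.72 in CD28KO and 0.49 in WT (limma, adjusted p = 3.61e-05 and 0.000809). For tTreg against Tconv in CD28KO, 6 became 5 with a pseudocount of 0.1 and with no filter, as Cd226 was lost. In WT, 3 became 5 after quantile normalization and without those 3 libraries. For pTreg against Tconv in WT, 1 became 0 with a pseudocount of 0.1 and with no filter, 3 after quantile normalization, and 2 with the replicate block and without those 3 or 2 libraries. For the differences of CD28 effects, 0 became 1 for pTreg minus tTreg without those 3 libraries and for tTreg minus Tconv without those 3 or 2. Quantile normalization moved the median of all tested genes from 0.36 to 0.02 in the difference of CD28 effects between pTreg and Tconv. The replicate block was a single term fitted over all 18 libraries. By the rule above, the numbers did not pair the genotypes within tTreg or pTreg, or pTreg and Tconv in WT. In those comparisons the block gave Cd160 in tTreg at -0.84 (limma, adjusted p = 0.0385) and Lag3 in WT pTreg minus Tconv at 0.93 (limma, adjusted p = 0.0496). For 17 of the 18 libraries the most similar residuals were in a library with the same number. The block changed no other call than those given here and beside the results.

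Over all tested genes the calls for CD28 deficiency numbered 25 in tTreg (3 to 130 over all alternatives), 25 in pTreg (6 to 120), 97 in Tconv (3 to 311) and 191 on average (134 to 906). They numbered 500 in CD28KO and 605 in WT between Treg subsets (322 to 1853 and 220 to 1224), 1484 and 1545 for tTreg against Tconv (1125 to 2815 and 1140 to 3098), and 718 and 551 for pTreg against Tconv (391 to 2082 and 214 to 1259). For the differences of CD28 effects they numbered 3 for pTreg minus tTreg (1 to 7), 15 for tTreg minus Tconv (2 to 70) and 9 for pTreg minus Tconv (2 to 29).

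Leaving out single libraries gave counts for CD28 deficiency of 0 in tTreg, 1 in pTreg, 1 to 2 in Tconv and 3 on average. Between Treg subsets it gave 2 in CD28KO and 2 to 3 in WT. For tTreg against Tconv it gave 5 in CD28KO and 3 to 4 in WT, for pTreg against Tconv 1 to 3 in CD28KO and 0 to 1 in WT, and 0 to 1 for the difference of CD28 effects between tTreg and Tconv. Tigit was between -1.53 and -1.32 in tTreg, -3.12 and -2.88 in pTreg, and -2.49 and -1.31 in Tconv. Lag3 was between -1.0 and -0.89, -1.68 and -1.38, and -2.79 and -2.11.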
